A study of Citrus maxima with 6 samples.

Results

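The nuclear and plastid photosynthetic genes of pomelo were examined in ripe pulp: the subunits of photosystem I and photosystem II, the light-harvesting proteins, Rubisco, and the chlorophyll enzymes that the same search words reached. A gene was taken as a member when its deposited name contained 1 of 7 words or phrases, in any case, which were photosystem, light harvesting, light-harvesting, chlorophyll, ribulose bisphosphate carboxylase, pheophorbide or magnesium chelatase. This gave 231 of the 30123 genes, or 0.767%. Pulp RNA was compared between a red-sarcocarp cultivar, Citrus maxima Merr. var. Tubtim Siam, and a white-sarcocarp cultivar, Citrus maxima (Burm.) Osbeck, both at the stage labelled fructescence, with 3 biological repeats each and no other treatment. Each repeat was mixed pulp from the equatorial plane of several ripe orchard fruits. Cultivar and orchard cannot be told apart from the descriptions, and p-values measure only the spread between these pools. Expression was given as FPKM, fragments scaled by transcript length and by the mapped fragments of the library, so that levels can be compared between genes. FPKM carries no count, so no counting interval is given and precision rests on the 3 repeats.

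Light is caught in the thylakoid membranes of the chloroplast by antenna proteins that bind chlorophyll, and passed to the reaction centres of photosystem II, which splits water, and photosystem I, which reduces ferredoxin. The reaction centre cores are encoded in the plastid genome. Most peripheral subunits, the antenna proteins outside the cores and the small subunit of Rubisco are encoded in the nucleus. Citrus fruits are green while they grow and lose chlorophyll towards ripeness, and in coloured fruits the plastids become chromoplasts rich in carotenoids.

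FPKM is scaled to the mapped fragments of each library, so its sums do not measure sequencing depth. The paper reports unequal amounts of clean sequence for the libraries. FPKM summed to between 812335 and 835575, and between 15920 and 16250 genes were above 0. A gene was tested when the 3 libraries of either cultivar averaged an FPKM of 1 or more, which kept 14158 genes, or 47.0%. Differences are red minus white from limma on log2(FPKM + 0.1), with Benjamini-Hochberg adjustment over those genes, and adding 0.1 understates the change of low genes. The study thresholds were an adjusted p of at most 0.01 with a log2 fold change of 2 or more in either direction. An adjusted p of at most 0.05 with no fold threshold was the second, wider call. Among seed genes, 10 in all, of which 2 were tested and 3 were at 0 throughout, the summed FPKM was 5.81, 5.40 and 25.51 in red replicates 1 to 3 and 0.09 to 0.76 in white. Of the 18 genes for peel epidermis and cuticle, 4 were at 0 throughout. The 18 summed to between 44.88 and 52.74 in red and to 29.41, 90.44 and 87.28 in white. Highest was FDH gene Cg4g018490, at 17.79, 15.41 and 17.61 in red and 16.83, 53.84 and 46.61 in white. CER3 reached 23.89 in red and 19.82 in white, while the epidermal markers ATML1 and PDF1 did not exceed 0.24 in any library. The 16 vascular genes, 6 at 0 throughout, summed to between 28.87 and 49.23. Within them the xylem wall gene IRX3, Cg4g023980, was at most 0.04 in red and at 1.83, 0.83 and 0.87 in white (adjusted p 0.00362), and the xylem protease gene XCP2 was at 24.5, 15.12 and 20.46 in red and 10.11, 5.47 and 15.09 in white (adjusted p 0.0487). The part of seed, peel or vascular tissue in the results that follow was not tested.

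Most of the 231 members were copies of plastid genes in the assembly, and nearly all of these were listed at 0. By best Arabidopsis hit, 72 matched psbB, which encodes the CP47 core antenna of photosystem II, 59 matched psaB and 28 matched psaA, which encode the reaction centre proteins of photosystem I, and 5 matched psbH, a small photosystem II subunit. Of these 164 copies, 160 carried identifiers of sequence not placed on a chromosome, and 161 were listed at 0 in all 6 libraries. The psaA copy Cg9g013140 was at 0.08, 0.07 and 0.11 in red and 0.06, 0.37 and 0.17 in white. The psbB copies CgUng015620 and CgUng012180 did not exceed 0.12 and 0.04. No plastid copy entered the tests. Over all genes, 368 of the 380 with a plastid best hit were likewise listed at 0. The libraries had been made from poly-A RNA, and the part of this in the zeros was not tested. A listed 0 does not show silence, since over all genes 2154 at 0 in every library still had normalized counts from the authors. Of the plastid copies listed at 0, CgUng008700 had a mean normalized count of 0.962, and nearly all others had 0 there too. The FPKM values therefore describe the copies in the assembly, and plastid transcription itself was not analysed here.

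The remaining 67 members had nuclear best hits, and 55 of them, or 82.1%, were tested. With the same level of 1 FPKM, 53 members were expressed in red-sarcocarp pomelo and 52 in white-sarcocarp pomelo, with 50 shared. LHCA6, LHCA5 and the PSBX copy CgUng010700 reached 1 in red alone, and PSBS and RBCS1A in white alone, so these 5 were tested through 1 cultivar only. Of the 12 members that were not tested, 3 were listed at 0 in every library and 9 lay above 0 with means below 1. These 9 included PSAO and PSAP of photosystem I, the assembly factors with best hits AT1G03600 (Psb27) and AT4G28660 (PSB28), and HCF107, which acts on psbH mRNA in Arabidopsis.

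With all members included, the programme held nearly the same small share of the pulp transcriptome in both cultivars. The members summed to 0.224, 0.204 and 0.199% of total FPKM in red replicates 1 to 3, and to 0.184, 0.205 and 0.216% in white replicates 1 to 3. The means were 0.209% ± 0.0135 (SD, n = 3) in red and 0.202% ± 0.0166 (SD, n = 3) in white, and the libraries of the cultivars overlapped. Without the highest member, Cg2g044400, the means were 0.179% in red and 0.145% in white, so their nearness rested on this gene. The FPKM level of Cg2g044400 is itself uncertain, as described with the antenna. Among the 55 tested members, which had been kept for a level of 1 FPKM or more, the median was a mean FPKM of 16.9 in red and 17.7 in white, beside 14.1 and 13.9 over all tested genes, which were kept in the same way. Above 50 FPKM stood 10 members in red and 5 in white. In bulk pulp, fewer green cells and less RNA per cell cannot be told apart.

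The similar totals covered unlike parts. Photosystem I subunits summed to 262 ± 26.8 FPKM in red and 198 ± 20.9 in white (SD, n = 3), with no overlap between libraries. Photosystem II subunits, at 378 ± 35.1 and 336 ± 40.2, and the antenna, at 630 ± 29.4 and 715 ± 86.8, overlapped. The light-harvesting-like proteins, relatives of the antenna that act in photoprotection or pigment supply, stood at 38.2 ± 2.17 in red and 103 ± 4.85 in white.

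Rubisco and the chlorophyll enzymes had the higher sums in red. Rubisco small subunits summed to 45.0 ± 11.5 FPKM in red and 17.5 ± 1.53 in white, the members of chlorophyll synthesis to 61.3 ± 3.38 and 42.5 ± 4.96, and those of chlorophyll breakdown to 195 ± 25.2 and 134 ± 18.7. In each of these the lowest red library lay above the highest white one. The breakdown sum rested on CLH1 gene Cg5g034980: the other breakdown members summed to 48.3 ± 9.23 in red and 50.5 ± 3.76 in white, which overlap. Assembly factors and other members, at 117 ± 11.3 and 99.7 ± 4.72, overlapped. These sums carry no test.

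**Figure D1:**
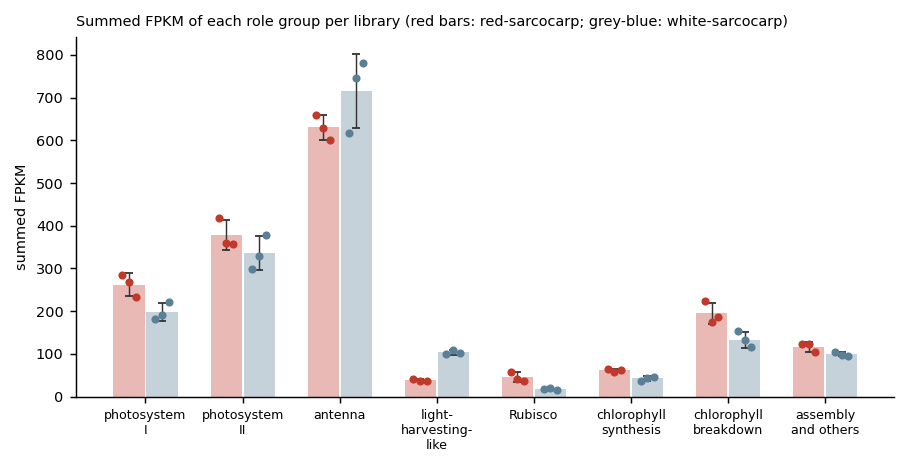
Summed FPKM of each role group. Points are the 3 libraries of each cultivar in order of replicate number, bars the mean and error bars the SD (n = 3). Red and white libraries do not overlap for photosystem I, light-harvesting-like proteins, Rubisco, chlorophyll synthesis and chlorophyll breakdown, and the light-harvesting-like group alone is higher in white among these.

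Of the 55 tested members, 19 (34.5%) were higher in red at an adjusted p of at most 0.05 in limma, beside 22.6% of all tested genes, and 12 (21.8%) were lower, beside 22.5%. The remaining 24 passed in neither direction. By the study thresholds 3 members were higher, where 3.11% of all tested genes were, and 2 were lower, where 3.65% were. The libraries of the cultivars did not overlap in 19 members with red above white, beside 29.4% of all tested genes, and in 12 with red below white, beside 28.3%. The median log2 fold change was 0.16 over the tested members and 0.02 over all tested genes. Leaving out red replicate 1 lowered the count of higher members from 19 to 11, and leaving out any other library gave 14 to 19. Red replicate 1 had the highest of the 3 red values in 32 of the 55 members (58.2%, beside 29.4% of all tested genes), and red replicate 3 the lowest in 34 (61.8%, beside 46.8%). White replicate 1 had the lowest of the 3 white values in 27 of the 55 (49.1%, beside 32.6%), and in 22 of the 35 photosystem, antenna and light-harvesting-like members (62.9%). White replicate 1 also had the lowest sum of peel genes and red replicate 3 the highest sum of seed genes, and the part of either tissue was not tested. Called members outside the rule for named genes were named after their values were seen.

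**Figure D2:**
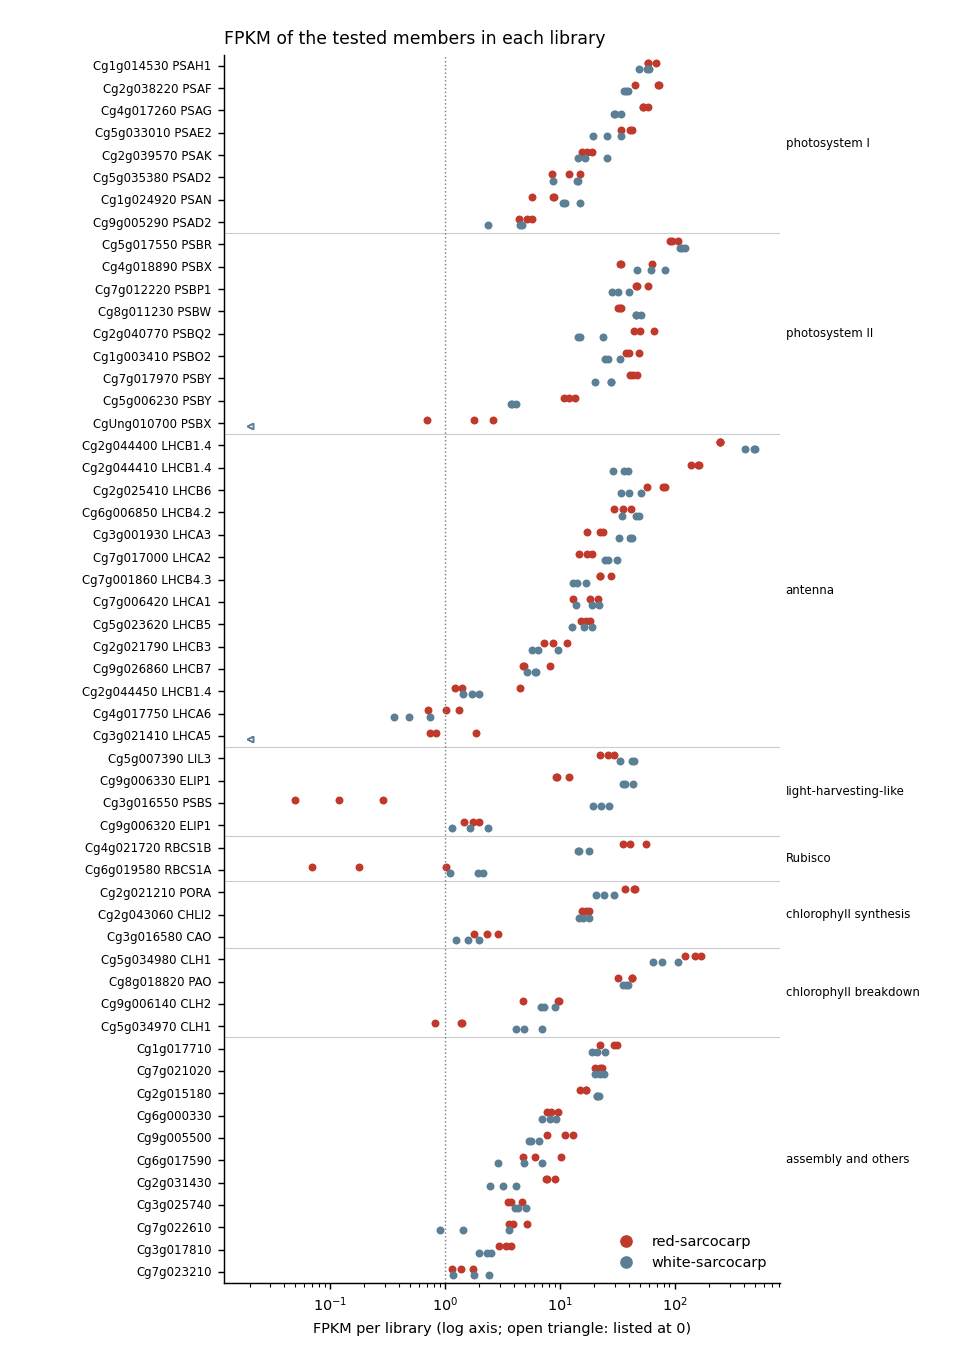
FPKM of the 55 tested members in each of the 6 libraries, on a log axis, ordered by role group and then by mean level. The dotted line marks an FPKM of 1, and open triangles mark white libraries listed at 0. Of the 55, 31 differ between cultivars at an adjusted p of at most 0.05 in limma. PSBS (Cg3g016550) reaches at most 0.29 in a red library and at least 19.54 in a white one.

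In photosystem I, 3 of the 8 tested subunits (37.5%) rose and 1 (12.5%) fell in red relative to white. Over all tested genes, 22.6% rose and 22.5% fell. PSAG, a membrane subunit at the edge of the complex that helps to hold LHCI, was at 53.39, 53.47 and 58.23 FPKM in red and 33.80, 30.33 and 29.46 in white. Every red library lay above every white one, and the log2 fold change was 0.82 ± 0.0858 (SE, adjusted p 0.000456, limma). PSAF, part of the docking site for plastocyanin, was at 73.17, 71.71 and 44.70 in red and 37.40, 35.92 and 38.98 in white. Its red replicate 3 was close to the white values, and the log2 fold change of 0.72 (adjusted p 0.0182) went to an adjusted p of 0.0653, 0.0598, 0.0503 and 0.0584 without red replicate 1, red replicate 2, white replicate 1 and white replicate 2.

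PSAE2, a stromal subunit at the ferredoxin side, averaged 39.0 ± 4.5 FPKM in red and 26.5 ± 7.3 in white (SD, n = 3). Its log2 fold change was 0.58 with an adjusted p of 0.0487, which exceeded 0.05 when any red library, white replicate 1 (log2 fold change 0.39) or white replicate 2 was left out, and in the authors' table its mean normalized count was 0. It was the only tested member with under 1 normalized count per FPKM, where the median over all tested genes was 31.2, so its level is uncertain. PSAN, a lumenal subunit, was at 8.94, 8.81 and 5.76 in red and 11.19, 10.76 and 14.90 in white. The log2 fold change was -0.65 with an adjusted p of 0.04, and without any 1 library the adjusted p ran from 0.0521 to 0.12. PSAH1, which docks the mobile antenna during state transitions, averaged 61.7 ± 5.54 in red and 55.2 ± 5.26 in white (adjusted p 0.242). PSAK and the PSAD2 copies Cg5g035380 and Cg9g005290 had adjusted p of 0.756, 0.851 and 0.22.

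In photosystem II, 6 of the 9 tested subunits (66.7%) rose and 2 (22.2%) fell, beside 22.6% and 22.5% of all tested genes. One rising gene, the PSBX copy CgUng010700, was tested through red alone. The rising subunits included all 3 extrinsic proteins of the oxygen-evolving complex that were tested, which shield the manganese cluster on the lumenal side. PSBQ2 was at 66.24, 49.57 and 44.47 FPKM in red and 14.88, 14.52 and 23.59 in white. Each red value was above each white one, with a log2 fold change of 1.61 ± 0.224 (SE, adjusted p 0.00144, limma), between 1.44 and 1.83 under the alternatives. PSBO2 averaged 42.3 ± 5.88 in red and 28.2 ± 4.78 in white, a log2 fold change of 0.59 (adjusted p 0.0161). PSBP1 averaged 50.5 ± 7.12 and 33.5 ± 5.75, a log2 fold change of 0.60 (adjusted p 0.016). Both were near the threshold when libraries were left out: the adjusted p of PSBO2 was 0.0574 without red replicate 1, 0.0519 without white replicate 1 and 0.0567 without white replicate 2, and that of PSBP1 was 0.056 without red replicate 1 and 0.0534 without white replicate 2. Together the 3 proteins summed to 146 ± 24.1 FPKM in red and 79.4 ± 15.5 in white.

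Among the small membrane subunits the directions were mixed. PSBY, a low-mass subunit beside cytochrome b559, had 2 tested genes that both rose. Cg5g006230 was at 11.98, 13.45 and 10.92 in red and 3.81, 4.14 and 3.74 in white, a log2 fold change of 1.61 ± 0.129 (SE, adjusted p 0.000169, limma). Cg7g017970 averaged 43.7 ± 3.4 and 25.4 ± 4.53, a log2 fold change of 0.80 (adjusted p 0.00432). PSBW, which stabilises photosystem II supercomplexes, was at 34.42, 33.22 and 32.40 in red and 50.39, 45.65 and 45.60 in white. It was the lower subunit with the narrower spread, at a log2 fold change of -0.50 (adjusted p 0.00228). PSBR, needed for stable binding of PSBP, averaged 97.5 ± 8.18 in red and 116 ± 6.29 in white, the highest level of any photosystem II member. Its log2 fold change was -0.26 with an adjusted p of 0.0482, which lay between 0.0546 and 0.161 without each library except red replicate 3.

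PSBX, another low-mass subunit, was represented by 2 genes of unlike behaviour. Cg4g018890 was at 63.69, 33.41 and 33.97 FPKM in red and 46.63, 61.91 and 81.77 in white, which overlap (adjusted p 0.156). The copy CgUng010700, on unplaced sequence, was at 0.70, 1.81 and 2.62 in red and was listed at 0 in all 3 white libraries. It passed the study thresholds (adjusted p 0.00234), no fold is given against a listed 0, and without red replicate 2 or red replicate 3 the adjusted p was 0.014 and 0.013.

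The antenna held the member with the highest FPKM, and among its 14 tested members 4 rose and 3 fell. These shares, 28.6% and 21.4%, were near the 22.6% and 22.5% of all tested genes. LHCB1 is the main protein of the trimeric LHCII antenna, and 5 pomelo genes with neighbouring identifiers, from Cg2g044400 to Cg2g044450, had the best hit AT2G34430 (LHCB1.4). Cg2g044400 was at 249.95, 250.1 and 248.59 FPKM in red and 406.35, 484.63 and 496.7 in white. It ranked 591 among all genes in red and 286 in white, and was lower in red by a log2 fold change of -0.88 ± 0.095 (SE, adjusted p 0.000508, limma). Its neighbour Cg2g044410 went the other way, at 161.56, 137.33 and 160.18 in red and 29.11, 39.21 and 36.37 in white. The log2 fold change was 2.14 ± 0.128 (SE, adjusted p 5.85e-05), past the study thresholds under every alternative, with values from 2.01 to 2.23.

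Cg2g044410 made up 38.0% ± 2.18 of the summed FPKM of both genes in red and 7.0% ± 0.428 in white (SD, n = 3). All 5 genes summed to 407 ± 10.4 FPKM in red and 501 ± 54.6 in white, with no overlap. Genes of 1 tandem family can share reads, and the split between them is uncertain. Cg2g044430 averaged 0.98 FPKM in both cultivars but had a mean normalized count of 241 from the authors. That count came from a separate counting of the reads. Cg2g044410 and Cg2g044400 had 3.48 and 5.10 normalized counts per FPKM, the lowest of the tested members after PSAE2. The median over all tested genes was 31.2, so the levels of both genes are uncertain too. Cg2g044440 and Cg5g027050, the latter with the best hit LHCB1.1, also had means below 1 in both cultivars, and Cg2g044450 averaged 2.38 ± 1.84 and 1.71 ± 0.275 (adjusted p 0.722).

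The other LHCII proteins gave small differences. LHCB6, a minor antenna protein that links LHCII to the core, averaged 73.0 ± 13.5 FPKM in red and 41.8 ± 8.77 in white, and rose by 0.81 on the log2 scale (adjusted p 0.0122). LHCB4.3, a form of the minor antenna CP29, averaged 24.2 ± 3.15 and 14.7 ± 2.06, and rose by 0.72 (adjusted p 0.00549). The CP29 form LHCB4.2, the CP26 protein LHCB5, LHCB3 and LHCB7 had adjusted p from 0.217 to 0.984. Means in red and white were 35.6 and 43.3 for LHCB4.2, 16.9 and 16.0 for LHCB5, 9.22 and 7.26 for LHCB3, and 5.95 and 5.80 for LHCB7.

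The antenna of photosystem I moved otherwise. LHCA3 was at 23.88, 22.42 and 17.19 in red and 32.63, 42.39 and 40.58 in white, a log2 fold change of -0.87 ± 0.156 (SE, adjusted p 0.00415, limma). LHCA2, its partner in the belt around photosystem I, averaged 17.0 ± 2.27 and 27.4 ± 3.5, a log2 fold change of -0.68 (adjusted p 0.00639). LHCA1 averaged 17.7 ± 4.38 and 18.3 ± 4.06 (adjusted p 0.862). All LHCA members together summed to 58.0 ± 7.51 FPKM in red and 84.8 ± 11.8 in white. In summed FPKM the photosystem I subunits and their antenna stood in opposite order, the former higher and the latter lower in red, with no overlap of libraries in either sum.

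LHCA5 and LHCA6, scarce antenna proteins that in Arabidopsis join photosystem I to the NDH complex, reached an FPKM of 1 in red alone. LHCA5 was at 1.85, 0.75 and 0.84 in red and was listed at 0 in all white libraries. It passed the study thresholds (adjusted p 0.00354), with an adjusted p of 0.0111 without red replicate 2 and 0.0116 without red replicate 3, and without red replicate 1 its mean fell below the level needed for testing. LHCA6 was at 1.32, 1.02 and 0.72 in red and 0.49, 0.36 and 0.74 in white, which overlap (adjusted p 0.132).

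Of the 4 tested light-harvesting-like members 0 rose and 3 fell in red in limma, and 0 were higher at an unadjusted p under 0.05. Over all tested genes 22.6% rose and 22.5% fell, and among only 4 genes a count of 0 says little. PSBS senses a low lumenal pH in the light and switches on the thermal dissipation of excess energy. Its gene Cg3g016550 was at 0.29, 0.05 and 0.12 FPKM in red and 19.54, 26.63 and 23.04 in white. In white it stood above the median member (17.7), and in red it was near 0 in every library, with a ratio of means of 150 for white over red. On the log2(FPKM + 0.1) scale the difference was -6.62 ± 0.361 (SE, adjusted p 4.24e-05, limma), the largest among the members, and it ran from -7.43 to -4.38 under the alternatives with the pseudocount.

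ELIP1 belongs to the early light-induced proteins, which accumulate when chlorophyll is freed or light is strong. Cg9g006330 was at 9.52, 9.34 and 12.09 in red and 43.62, 36.93 and 35.49 in white, a log2 fold change of -1.90 ± 0.135 (SE, adjusted p 0.000116, limma). It lay just short of the fold threshold of the study, and without red replicate 3 it passed at -2.02. The neighbouring copy Cg9g006320 averaged 1.74 ± 0.265 and 1.73 ± 0.624 (adjusted p 0.9). LIL3, which anchors geranylgeranyl reductase for chlorophyll and tocopherol synthesis, averaged 26.0 ± 3.53 in red and 39.9 ± 5.69 in white, a log2 fold change of -0.61 (adjusted p 0.0122). A second LIL3 copy, Cg7g011880, was listed at 0 in every library.

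**Figure D3:**
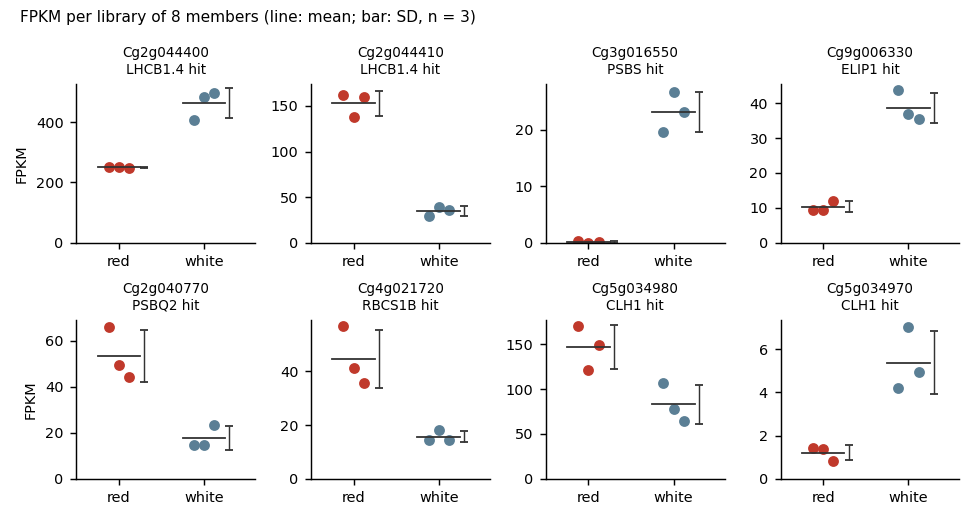
FPKM per library of 8 members, with the mean as a line and the SD as a bar (n = 3), each on its own axis from 0. Neighbouring genes differ in direction: LHCB1.4 hit Cg2g044400 is higher in white and Cg2g044410 in red, and CLH1 hit Cg5g034980 is higher in red and Cg5g034970 in white.

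The small subunit of Rubisco, the enzyme that fixes CO2, was encoded by 2 tested genes. RBCS1B, Cg4g021720, was at 56.80, 41.19 and 35.70 FPKM in red and 14.60, 18.08 and 14.46 in white. All red libraries were above all white ones, and the log2 fold change was 1.48 ± 0.182 (SE, adjusted p 0.000878, limma), between 1.29 and 1.62 under the alternatives. RBCS1A, Cg6g019580, was at 1.02, 0.18 and 0.07 in red and 2.16, 1.12 and 1.93 in white. It contributed little to the sum and was tested through white alone. Its log2 fold change was -2.24 (adjusted p 0.0391), with values from -3.02 to -0.98 under the alternatives, and the adjusted p lay between 0.0609 and 0.108 without each library except red replicate 1.

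Of the 3 members in chlorophyll synthesis, 1 (33.3%) rose, beside 22.6% of all tested genes. PORA reduces protochlorophyllide in the light, the step that greens a seedling, and was at 45.46, 36.71 and 44.29 FPKM in red and 20.74, 24.11 and 29.58 in white. Its log2 fold change was 0.77 ± 0.149 (SE, adjusted p 0.00558, limma). CHLI2, a subunit of the magnesium chelatase that commits the pathway to chlorophyll, averaged 16.8 ± 1.29 and 16.1 ± 1.59 (adjusted p 0.648). Cg3g016580 carries the name of the pheophorbide a oxygenase family, but its best hit is chlorophyllide a oxygenase (CAO), which makes chlorophyll b. It averaged 2.35 ± 0.561 and 1.6 ± 0.366 (adjusted p 0.16).

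The wider pathway, listed by Arabidopsis hits, added 17 tested genes that the search words did not reach. Of these, 6 (35.3%) rose and 1 (5.88%) fell, beside 22.6% and 22.5% of all tested genes. Their median log2 fold change was 0.23, beside 0.02 over all tested genes. CHLD, the second subunit of magnesium chelatase, was at 5.53, 5.76 and 5.19 FPKM in red and 0.98, 0.79 and 2.06 in white for Cg2g004190. This gene passed the study thresholds, at a log2 fold change of 2.13 (adjusted p 0.00239), with an adjusted p of 0.0128, 0.0112 and 0.0103 without red replicate 1, red replicate 2 and white replicate 1, and a log2 fold change below 2 without white replicate 2. Its neighbour Cg2g004200, with the same hit and tested through red alone, also rose (1.93, adjusted p 0.00942), and reads can be shared between them.

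The geranylgeranyl reductase gene Cg5g010250, which supplies the phytol tail, rose by 0.84 (adjusted p 0.00644), and HEMF1, HEMG1 and HEME2 of the porphyrin steps rose by 0.92, 0.42 and 0.39 (adjusted p 0.00145, 0.021 and 0.0439). HEMD, uroporphyrinogen synthase, fell by 0.65 (adjusted p 0.0189), and without white replicate 1 the count of lower genes was 0. HEMA1, which catalyses the first committed step and had the highest level in the list, averaged 58.8 in red and 67.5 in white (adjusted p 0.359). CHLH, the large magnesium chelatase subunit, averaged 1.66 and 0.873 (adjusted p 0.0972).

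Of the 4 tested members in chlorophyll breakdown, 1 rose and 1 fell, beside 22.6% and 22.5% of all tested genes. Both were CLH1 genes. CLH1 encodes chlorophyllase, which removes the phytol tail. Cg5g034980, second among the members by the mean over all 6 libraries, was at 169.88, 121.72 and 149.01 FPKM in red and 106.78, 78.01 and 64.48 in white. The log2 fold change was 0.84 ± 0.2 (SE, adjusted p 0.013, limma), with an adjusted p of 0.0506 without red replicate 1. The adjacent copy Cg5g034970 was at 1.42, 1.39 and 0.82 in red and 4.2, 7.02 and 4.92 in white. It was lower past the study thresholds, at -2.07 ± 0.292 (SE, adjusted p 0.00151), and short of the fold threshold without red replicate 3 (-1.83) or white replicate 2 (-1.86). Another copy, Cg5g020710, was listed at 0 throughout.

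PAO opens the chlorin ring and ends the green stage of breakdown. It averaged 39.0 ± 6.01 FPKM in red and 37.4 ± 1.97 in white (adjusted p 0.773), with a 95% interval of the log2 fold change from -0.25 to 0.35. CLH2 averaged 8.07 ± 2.88 and 7.75 ± 1.25 (adjusted p 0.996). Of 5 tested breakdown genes outside the search words, 0 rose and 2 fell, and 0 were higher at an unadjusted p under 0.05. Over all tested genes 22.6% rose and 22.5% fell, and among only 5 genes a count of 0 says little. SGR1, the magnesium dechelatase known as stay-green, was at 10.68, 15.25 and 9.98 in red and 31.76, 35.70 and 19.21 in white, a log2 fold change of -1.24 ± 0.261 (SE, adjusted p 0.0078, limma). RCCR, which acts after PAO, averaged 28.3 and 47.4, a log2 fold change of -0.74 (adjusted p 0.00173). NYC1, chlorophyll b reductase, averaged 30.3 and 31.5 (adjusted p 0.783).

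**Figure D4:**
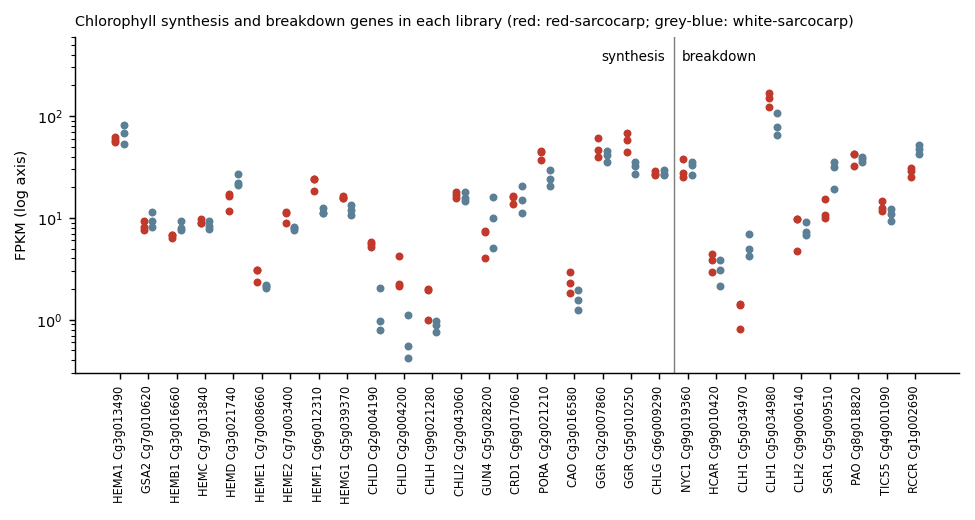
FPKM per library, on a log axis, of all tested genes of chlorophyll synthesis and chlorophyll breakdown, members and others, in pathway order. Genes of synthesis that passed an adjusted p of 0.05 are mostly higher in red, such as HEMF1, PORA and both CHLD genes, whereas among breakdown genes SGR1, RCCR and CLH1 gene Cg5g034970 are lower and CLH1 gene Cg5g034980, the most abundant, is higher in red.

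Of the 11 other tested members, mostly assembly factors and lumenal proteins, 3 (27.3%) rose and 1 (9.09%) fell. The shares over all tested genes were 22.6% and 22.5%. Cg2g031430, a protein of the PsbP family, was at 7.71, 9.07 and 7.61 FPKM in red and 3.22, 4.13 and 2.46 in white, a log2 fold change of 1.31 ± 0.207 (SE, adjusted p 0.00237, limma). Cg9g005500, whose hit AT1G05385 assists photosystem II assembly in Arabidopsis, rose by 0.82 (adjusted p 0.0152, and 0.0567 and 0.0507 without red replicate 1 and white replicate 3). Cg3g017810, a PsbP-like protein, rose by 0.55 (adjusted p 0.048), and its adjusted p was 0.0616 to 0.134 without each library except red replicate 3.

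Cg2g015180, whose Arabidopsis hit PSB29 is needed for thylakoid formation, fell by 0.39 (adjusted p 0.0114), at 16.3 ± 1.08 FPKM in red and 21.4 ± 0.622 in white. Cg1g017710, named for the post-illumination rise of chlorophyll fluorescence, averaged 27.8 ± 4.66 and 21.6 ± 2.86 (adjusted p 0.0974). Cg7g021020 averaged 22.0 ± 1.56 and 22.3 ± 2.05 (adjusted p 0.915). It was reached through its PsbP family name, while its best hit AT1G69680 is MOG1, a nuclear transport factor. HCF109 and HCF153, which act in plastid translation and in cytochrome complex formation, had adjusted p of 0.698 and 0.0584.

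**Figure D5:**
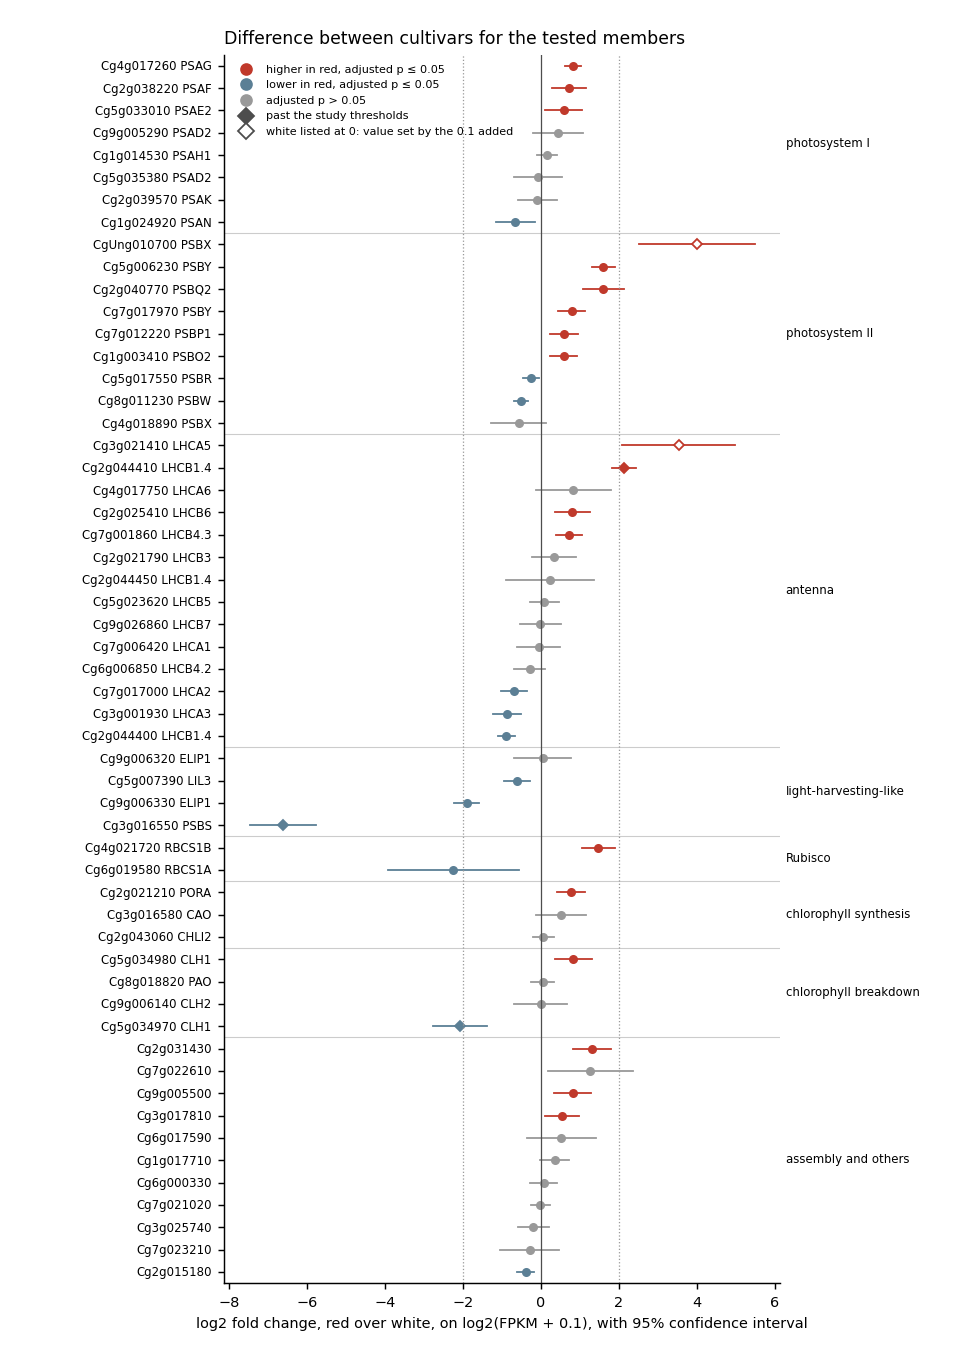
Log2 fold change, red over white, of the 55 tested members with 95% confidence intervals from limma, on log2(FPKM + 0.1). Dotted lines mark a log2 fold change of 2 in size, diamonds mark members past the study thresholds, and open diamonds mark the 2 members listed at 0 in white, whose values depend on the 0.1 added. PSBS stands farthest to the left, and most called members lie within 2 of 0.

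The electron carriers and the Calvin cycle, none of them members, were called at rates near those of all tested genes, 22.6% higher and 22.5% lower. Of 10 tested genes of electron transport and ATP synthase, 2 (20%) rose and 3 (30%) fell. The count of 2 was 0 without white replicate 1 and 1 without each of the other libraries. It included ATPC1, which was tested through red alone. PGR5, which acts in cyclic electron flow around photosystem I, was at 1.90, 3.47 and 1.24 FPKM in red and 21.20, 19.32 and 13.51 in white. It was lower past the study thresholds, at a log2 fold change of -3.07 ± 0.359 (SE, adjusted p 0.000718, limma). The most abundant of the list, ferredoxin FD2 and plastocyanin PETE2, averaged 28.9 and 34.7 (adjusted p 0.264) and 34.8 and 24.2. PETE2 rose by 0.51 (adjusted p 0.0219).

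Of 13 tested Calvin cycle genes, 3 (23.1%) rose and 2 (15.4%) fell, beside 22.6% and 22.5% of all tested genes. CP12-3, of a family of small regulators of the cycle, was at 24.89, 10.39 and 14.08 FPKM in red and listed at 0 in white. CP12-3 was thus tested through red alone, and it passed the study thresholds (adjusted p 3.04e-05). GAPA1, a subunit of the plastid glyceraldehyde phosphate dehydrogenase, was at 1.97, 1.12 and 1.09 in red and 0.04, 0 and 0.15 in white (log2 fold change 3.25, adjusted p 0.00363). It was tested through red alone, and its log2 fold change ran from 1.15 to 4.97 with other pseudocounts, short of the fold threshold with 0.5 or 1. Without a red library the adjusted p missed 0.01, at 0.0235, 0.0134 and 0.0111 without red replicates 1, 2 and 3. Its partner subunit GAPB was lower, at 6.65 and 19.4 on average (-1.54, adjusted p 0.00141). CP12-2 and TKL2, the highest of the list, averaged 124 and 159 and 72.5 and 85.6 (adjusted p 0.24 and 0.133).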

How the data were processed

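Pulp RNA of 3 red- and 3 white-sarcocarp pomelo repeats was sequenced by the authors from poly-A libraries of a kit that does not mark strand. After trimming (Trimmomatic), STAR 2.7.1a aligned the reads to the first release of the pomelo genome. The deposited FPKM values, 1 for each gene in each library with 2 decimals, came from RSEM 1.3.1. The authors also deposited the mean over the 6 libraries of normalized counts, a signal from featureCounts 2.0.1 and DESeq2, which served here only to check FPKM. Columns with the fold changes and p-values of the authors' own comparison were not used, nor was a second table that holds a subset of the same genes. There were 0 unused columns of single libraries. Counts of single libraries were not used here, so limma replaced the count test of the paper. No 2 libraries shared more than 1.66% of their values.

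The genes tested averaged 1 FPKM or more in either cultivar. A linear model of log2(FPKM + 0.1) on cultivar was fitted in limma 3.58.1 (R 4.3.3), its variances were moderated with a trend on the mean level, and p-values were adjusted by Benjamini-Hochberg. The fit was also run on simulated data with known changes. At an adjusted p of at most 0.05 it recovered 68% of log2 changes of 1 and 86% of changes of 2. Smaller changes were not simulated. Sums and counts were made in Python 3.11.15 with pandas 2.3.3. Members, role groups and pathway lists were chosen with earlier results of these data known. Lists were matched through the Arabidopsis best hits that the deposited table gives, from which gene symbols were also taken. Named were members past the study thresholds or expressed in 1 cultivar only, the 3 highest of each role group, the 10 largest fold changes at an adjusted p of at most 0.05, all tested members of chlorophyll synthesis and breakdown, and, in other lists, genes past the study thresholds and the 2 highest. Alternatives were other pseudocounts, filters, scalings and moderation, a replicate block, other expression thresholds and denominators, and leaving out each library. No genome was used here, so no positions or sequences are given.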

Additional observations from a re-analysis of the deposited data

How the results depend on the processing

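Leaving out 1 library at a time gave 1 to 3 members higher and 1 to 3 lower by the study thresholds (3 and 2 with all libraries), and 11 to 19 higher and 9 to 11 lower at an adjusted p of 0.05 (19 and 12). By the study thresholds 1 member was higher with a pseudocount of 1 and 1 when the mean over all 6 libraries had to reach 1, and 1 was lower with a pseudocount of 0.5 and 1 with a pseudocount of 1. The replicate numbers are only shared names, since same-numbered libraries deviated with correlations of 0.000385, 0.0309 and -0.0446. With the replicate block 1 member was higher and 2 lower by the study thresholds, and 19 and 11 at an adjusted p of 0.05.

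The share of total FPKM was 0.179% in red and 0.145% in white without the highest member, Cg2g044400, and 0.282% and 0.262% when the 100 genes of highest mean FPKM were left out of the total. Members expressed numbered 42 to 61 in red and 40 to 57 in white under other thresholds. Among role group shares and pathway counts, 44 alternative values moved by more than the replicate SD or by over 1.5 times. Of 588 alternative fold changes over 37 genes, 507 stayed on their side of the threshold, 81 fell short of it and 0 reversed. Limits are the 3 pools per cultivar, the 0.1 added to low values, reads shared between neighbouring copies, and FPKM without counts, so a gene listed at 0 is not shown to be silent.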

Other observations

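Genes outside the photosynthetic apparatus that bear on plastids were also compared. Of 7 tested regulators of photosynthetic genes, 4 rose in red and 0 fell in limma, beside 22.6% and 22.5% of all tested genes, and 0 were lower at an unadjusted p under 0.05. Their median log2 fold change was 0.43, beside 0.02 over all tested genes. GNC is a GATA factor that promotes greening in Arabidopsis. Its gene Cg4g006690 was at 4.41, 4.91 and 3.91 FPKM in red and 0, 0.16 and 0.28 in white, a log2 fold change of 4.39 ± 0.52 (SE, adjusted p 0.000748). It was tested through red alone, and the value ran from 2.24 to 5.80 with other pseudocounts. The neighbouring GNC hit Cg4g006680 averaged 0.13 in red and 0.163 in white, with a mean normalized count of 19.0, and reads can be shared between them. Another GNC hit, Cg4g009200, and GLK1 gene Cg2g008060 were listed at 0 throughout. PIF3, which represses greening in the dark, averaged 7.74 and 3.13 and rose by 1.3 (adjusted p 0.00133). GUN1, of plastid-to-nucleus signalling, and PIF1 rose by 0.84 and 0.43 (adjusted p 0.0051 and 0.0352). The light receptor PHYB averaged 8.25 and 8.21 (adjusted p 0.978).

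Of 13 tested carotenoid and chromoplast genes, 3 (23.1%) rose and 4 (30.8%) fell, beside 22.6% and 22.5% of all tested genes. PSY, the entry enzyme of the pathway, was at 170.71, 165.54 and 147.39 FPKM in red and 27.63, 34.23 and 26.19 in white, a log2 fold change of 2.46 ± 0.119 (SE, adjusted p 2.67e-05, limma). LCYB, which closes the rings of lycopene, had a gene lower in red, Cg8g013670 at 15.5 and 39.0 on average (-1.31, adjusted p 0.000568), and a scarcer gene higher, Cg9g017190 at 3.04 and 1.5 (0.98, adjusted p 0.0166). BCH1, which hydroxylates beta-carotene, averaged 40.6 and 52.0 and was lower by a log2 fold change of -0.36 (adjusted p 0.0208). The largest fall among the called genes was in ZDS gene Cg3g011420, at 1.66 and 5.82 on average (-1.74, adjusted p 0.000831). The nearby ZDS hit Cg3g011340 averaged 0.643 in red and 0.417 in white, with a mean normalized count of 179, and reads can be shared between them. The count of 3 higher genes was 1 without red replicate 1 and 1 without red replicate 2.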
